A study of Mus musculus with 4 samples.

Results

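The subunits of respiratory complexes I, II and III and of ATP synthase, complex V, were followed as transcripts in mouse ventricle. Members were all genes on the array whose symbol begins with Nduf, Uqcr or Atp5, together with Sdha, Sdhb, Sdhc, Sdhd, Cyc1 and Cycs. Only probe sets with a single gene symbol counted, and each gene was read from its brightest probe set over all arrays. This gave 58 genes, read by 78 probe sets, of 8251 named genes and 10833 such probe sets. Complex I had 31 genes, complex II 4, complex III with cytochrome c 9, and complex V 14. The complex I genes include 2 assembly factors, Ndufaf1 and Ndufaf4, which are not subunits but are in its counts and median. The rule used symbols for the genes and the mean signal over all 4 arrays for the probe set of each, and no difference between the groups.

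RNA came from the ventricles of mice at 6 months of age. Both groups were of the cardiac ventricle: 2 arrays carried RNA of non-transgenic animals, and 2 carried RNA of transgenic animals with moderate overexpression of serum response factor (SRF) directed to the heart. SRF is a transcription factor of muscle and cytoskeletal genes. The sources used here give neither the promoter that drives the transgene nor the strain or sex. Nor do they say whether both samples of a group are from different animals, and each p-value below thus rests on sample spread that may be technical. The SRF transcript was not analysed here.

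Complexes I to IV, in the inner mitochondrial membrane, pass electrons from NADH and succinate to oxygen. Complexes I, III and IV pump protons as they do so, and complex V uses the returning protons to make ATP. Heart muscle depends on this pathway for nearly all of its ATP, mainly from fatty acids, and its mitochondria are dense. Complex I takes electrons from NADH at the tip of a matrix arm, passes them to ubiquinone and pumps through a membrane arm. Its catalytic core is surrounded by many small supernumerary subunits encoded in the nucleus.

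Transcripts called lower in transgenic ventricle were mostly of complex I, and none passed as higher. Of the 58 members, 55 passed the filter on dim probe sets, 20 of these fell (0 higher, 35 short of the threshold; limma with Benjamini-Hochberg adjustment over 7453 probe sets). At an unadjusted p below 0.05 the counts were 37 lower and 0 higher. Among all probe sets tested 3.86% were called lower and 4.07% higher. Among those with a mean signal of 1000 or more, as most members have, 19% were called lower. By complex, 15 of 29 tested genes fell in complex I, 2 of 4 in complex II, 2 of 9 in complex III with cytochrome c, and 1 of 13 in complex V. The difference between the complexes was not tested.

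The falls were small. Changes below are differences of log2(signal + 9), transgenic minus non-transgenic, with the moderated standard error (SE), and signals are linear array units. The median log2 change was -0.36 over complex I, -0.27 over complex II, -0.21 over complex III and -0.24 over complex V, against -0.01 over all probe sets tested. Of the 55 tested members, 52 had a change below 0, and in 46 both transgenic arrays lay below both non-transgenic arrays. That order held for 28.1% of all probe sets tested. With 2 arrays per group a gene is seldom called without such an order, so it adds no support to a call. Without non-transgenic replicate 1 the number called lower was 12 (10 in complex I), without non-transgenic replicate 2 it was 10 (9), without transgenic replicate 1 it was 8 (6), and without transgenic replicate 2 it was 9 (8). With limma's variance held free of signal, or with an ordinary test, 0 members were called, although 20 and 24 then had an unadjusted p below 0.05 and a lower level.

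**Figure D1:**
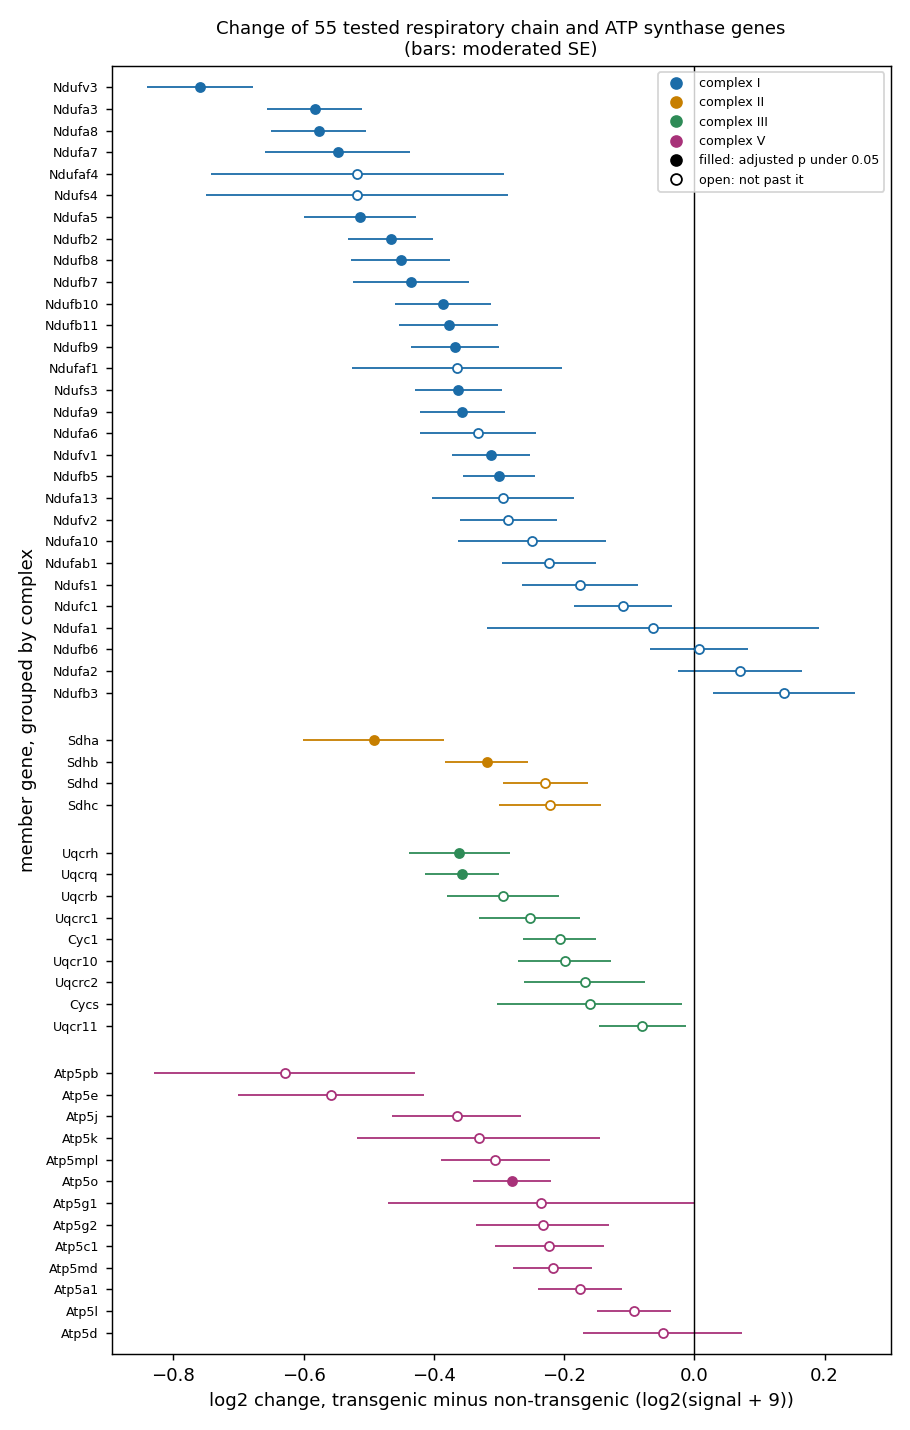
Log2 change (transgenic minus non-transgenic, x axis) of the 55 tested genes, grouped by complex on the y axis, with bars for the moderated SE and filled points for an adjusted p under 0.05. Changes run from -0.76 for Ndufv3 to 0.14 for Ndufb3, and 15 of the 20 filled points belong to complex I.

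The median member was close to the same level on both arrays of a group, while single members could differ more. Ndufaf4, for one, gave 147.8 and 95.2 in non-transgenic ventricle. Each gene was set against the mean of its own non-transgenic arrays. The 2 non-transgenic medians therefore mirror each other around 0 by construction. Relative to the mean of both non-transgenic arrays, the median member of complex I stood at -0.02 and 0.02 in non-transgenic and at -0.34 and -0.36 in transgenic ventricle, in log2 units. Complex II stood at -0.04 and 0.04 against -0.28 and -0.31. Complex III stood at 0.01 and -0.01 against -0.23 and -0.20, and complex V at -0.01 and 0.01 against -0.25 and -0.25. In each complex the medians of both transgenic arrays lay below those of both non-transgenic arrays. Between the groups, the log2 changes of single members ran from -0.76 to 0.14.

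**Figure D2:**
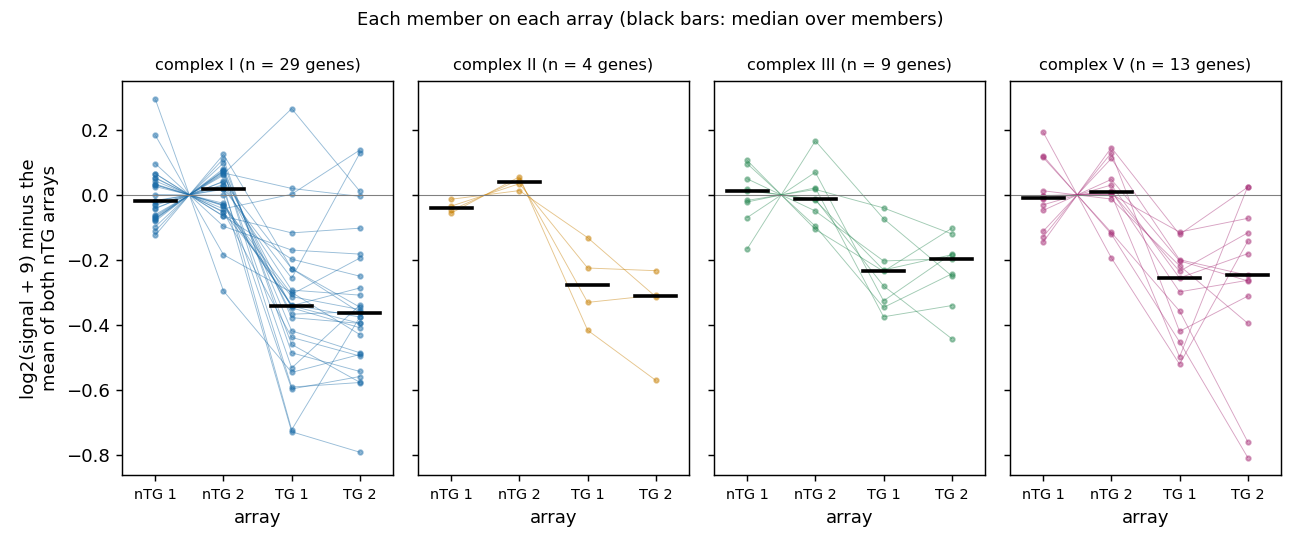
Each line is 1 gene over the 4 arrays (x axis; nTG, non-transgenic, and TG, transgenic), as log2(signal + 9) minus the mean of its non-transgenic arrays (y axis), with black bars for the median over genes. The medians of the transgenic arrays lie between -0.36 and -0.20, and single genes of complexes I and V spread more widely than the medians.

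Most members are bright on this array, and bright probe sets were called more often than others, in both directions. Of the 517 probe sets with a mean signal of 1000 or more, 98 (19%) were called lower and 49 higher. Among all 7453 tested these counts were 288 and 303. The bright ones had a median log2 change of -0.06, and in 46.4% of them both transgenic arrays lay below both non-transgenic arrays. Of the 42 members in that range 19 fell, with a median of -0.30, and 39 had that order of arrays. The members that fell included 15 of 23 in complex I, 1 of 3 in complex II, 2 of 8 in complex III and 1 of 8 in complex V. Of the 13 dimmer members that were tested, 1 fell. The median SE was 0.07 for the 20 members that fell and 0.09 for the 35 that did not pass.

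**Figure D3:**
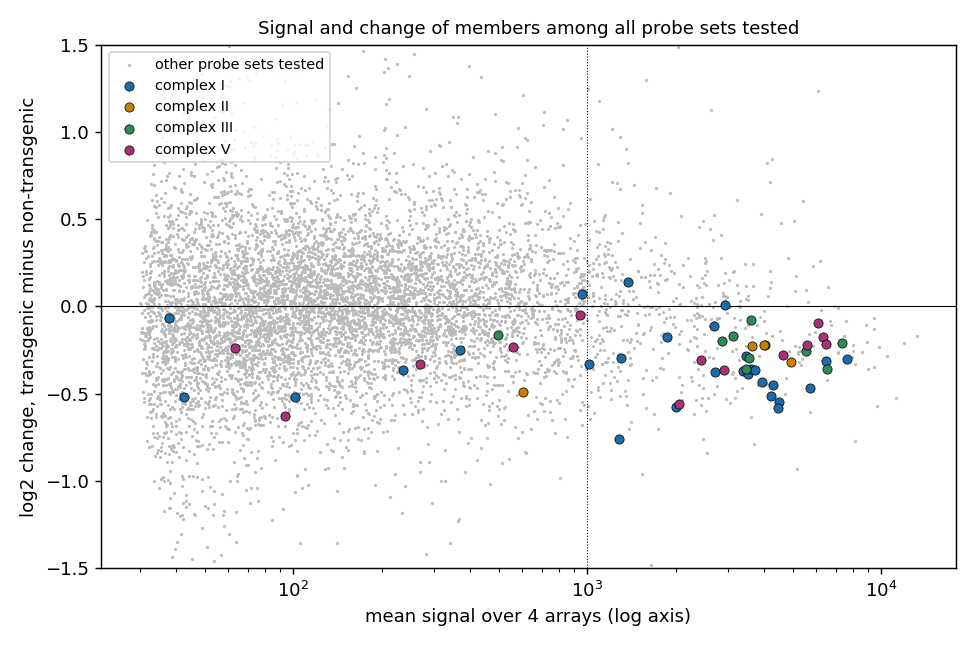
Log2 change (y axis) against mean signal over the 4 arrays (x axis, log scale) for all 7453 probe sets tested in grey and for the members in colour, with a dotted line at a signal of 1000; 77 probe sets lie outside the y range. Members of all 4 complexes lie mostly below 0 at signals over 1000, where the median of all probe sets was -0.06.

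Promoter sequence was taken for all members that had one, called or not. NRF1 and the ETS family factor GABP are known to bind many promoters of respiratory genes, and SRF binds the CArG box. RefSeq promoters (GRCm38.p6, 250 bases before to 50 after the start) were at hand for 48 of the 58 members. The NRF1 core GCGCANGCG, searched on both strands, stood in 15 of these 48 genes (31.2%) and in 7.03% of all 27025 genes with a promoter. The ETS core CCGGAAG, on both strands, stood in 13 (27.1%) against 9.93%. The core of estrogen-related receptor sites, TNAAGGTCA on both strands, stood in 1 (2.08%) against 1.43%, and the CArG box in 0 against 1.81%. Among the 18 members that fell and had a promoter, 5 held the NRF1 core and 4 the ETS core, and among the 27 tested members that did not pass, 10 and 9 did. A match is a description of letters, not of binding, and a missing match says nothing of the factor.

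The 120 bases before the start are shown for 4 members that fell, from complexes I, II and III, because they hold these cores. Capitals mark the cores. The same window of Ndufv3 and of Atp5o, which also fell, held 0 of them. The choice says nothing of how common the cores are among members that fell. Ndufa8 (complex I, chr2:36049339-36049458, minus strand) has the NRF1 core 29 to 21 and 9 to 1 bases before the start. Sdha (complex II, chr13:74350241-74350360, minus strand) has it at 98 to 90, 55 to 47 and 10 to 2. Ndufs3 (complex I, chr2:90904722-90904841, minus strand) has the ETS core at 27 to 21 and Uqcrh (complex III, chr4:116075071-116075190, minus strand) at 10 to 4.
Ndufa8: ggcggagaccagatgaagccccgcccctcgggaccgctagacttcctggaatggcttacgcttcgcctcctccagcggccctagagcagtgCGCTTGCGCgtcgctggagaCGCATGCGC
Sdha: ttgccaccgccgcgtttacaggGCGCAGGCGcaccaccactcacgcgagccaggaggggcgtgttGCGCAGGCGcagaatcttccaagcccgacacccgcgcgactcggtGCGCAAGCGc
Ndufs3: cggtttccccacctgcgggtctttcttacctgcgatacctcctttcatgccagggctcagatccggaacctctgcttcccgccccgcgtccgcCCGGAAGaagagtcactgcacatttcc
Uqcrh: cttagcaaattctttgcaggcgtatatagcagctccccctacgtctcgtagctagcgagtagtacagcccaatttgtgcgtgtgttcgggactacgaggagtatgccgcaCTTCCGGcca

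The catalytic core of complex I had 4 tested members, of which Ndufv1 and Ndufs3 fell. Ndufv1, the flavoprotein that binds NADH, gave signals of 7337.4 and 7001.3 in non-transgenic against 5659.8 and 5877.8 in transgenic ventricle, a log2 change of -0.31 ± 0.06 (limma adjusted p = 0.0254). Ndufs3, a subunit of the module that reduces quinone, gave 4073.8 and 4319.0 against 3251.8 and 3269.4, a change of -0.36 ± 0.07 (limma adjusted p = 0.0226). In both the groups did not overlap. Ndufv2, which carries an iron-sulfur cluster beside Ndufv1, gave 3692.3 and 3908.1 against 3246.0 and 2988.9, and Ndufs1, the largest iron-sulfur subunit, gave 2109.1 and 1844.2 against 1752.7 and 1737.6. Neither passed the test (limma adjusted p = 0.0659 and 0.278).

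Among supernumerary subunits of the NADH-oxidising module, Ndufv3 had the largest fall of all members. Its signals were 1619.8 and 1617.4 without the transgene and 973.9 and 932.0 with it. The log2 change was -0.76 ± 0.08, or 40.9% lower (limma adjusted p = 0.00380). Both transgenic arrays were far below the non-transgenic ones, which agreed closely. Ndufa7 gave 5187.6 and 5419.5 against 3211.9 and 4087.7, a change of -0.55 ± 0.11 (limma adjusted p = 0.0312), with the transgenic arrays apart from each other but both below the non-transgenic ones. Its call ended in 3 of the 4 limma fits without an array (adjusted p up to 0.0781). Ndufa2, of the same module, did not follow, at 960.1 and 904.4 against 933.2 and 1026.3. Ndufs4, whose loss in mice is used as a model of Leigh syndrome, was dim at 47.4 and 55.6 against 34.9 and 31.5 (-0.52 ± 0.23) and did not pass (limma adjusted p = 0.227).

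At the quinone-reducing module and its junction with the membrane arm, 2 of 3 members fell. Ndufa5, a matrix arm subunit, gave 4589.6 and 5355.1 against 3539.7 and 3401.1, a log2 change of -0.51 ± 0.09 (limma adjusted p = 0.0172). Ndufa9, at the junction of both arms, gave 4112.7 and 3967.8 against 3195.2 and 3112.6, a change of -0.36 ± 0.07 (limma adjusted p = 0.0225). The groups did not overlap in either. Ndufa6 was close, at 1168.2 and 1084.4 against 904.7 and 879.8, and missed the threshold (limma adjusted p = 0.0733).

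The membrane arm had 16 tested members, of which 9 fell, with log2 changes from -0.58 to -0.30. Ndufa3 gave 5078.9 and 5643.1 against 3552.9 and 3587.5, a change of -0.58 ± 0.07 (limma adjusted p = 0.00612). Ndufa8, a cysteine-rich subunit that faces the intermembrane space and whose promoter is printed above, gave 2367.6 and 2424.9 against 1582.1 and 1624.8, a change of -0.58 ± 0.07 (limma adjusted p = 0.00670). Both genes stood at about the same distance from the non-transgenic arrays on each transgenic array. Of the Ndufb subunits, Ndufb2 gave 6870.6 and 6395.9 against 4892.2 and 4701.3, a change of -0.47 ± 0.06 (limma adjusted p = 0.00961). Ndufb8 gave 4664.8 and 5217.1 against 3691.4 and 3522.3, a change of -0.45 ± 0.08 (limma adjusted p = 0.0175). Ndufb7, Ndufb10, Ndufb11, Ndufb9 and Ndufb5 fell as well, by 0.44, 0.39, 0.38, 0.37 and 0.30 on the log2 scale, and the groups did not overlap in any of them.

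Some membrane arm subunits were level or above. Ndufb3 gave 1246.8 and 1363.7 against 1568.6 and 1314.1, so that the groups overlapped. Ndufb6 gave 2796.2 and 3071.7 against 2971.5 and 2921.4, also overlapping. Their log2 changes were 0.14 ± 0.11 and 0.01 ± 0.08, with 95% intervals of -0.12 to 0.40 and -0.17 to 0.19. With Ndufa2 (0.07 ± 0.10) these were the 3 members of all 55 with a change above 0, and none of the 3 passed the test. Ndufb6 had a change of -0.060 without non-transgenic replicate 1 and of -0.0046 without transgenic replicate 1.

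The assembly factors Ndufaf1 and Ndufaf4, which help build complex I and are not part of it, had log2 changes of -0.36 ± 0.16 and -0.52 ± 0.23 and did not pass the test. Ndufaf4 gave 147.8 and 95.2 against 78.6 and 82.0. Ndufa12 (9.2 and 13.2 against 4.6 and 4.4) and Ndufc2 (37.1 and 14.4 against 27.5 and 16.3) lay below the filter and were not tested. The 6 genes Ndufv3, Ndufa3, Ndufa8, Ndufa5, Ndufb2 and Ndufb8 kept their calls whichever array was left out. The other 9 called genes of complex I lost theirs more often. Ndufb5 was called in 0 of the 4 fits, Ndufb7 in 2, and Ndufv1, Ndufs3, Ndufa7, Ndufa9, Ndufb9, Ndufb10 and Ndufb11 in 1 each, with limma adjusted p up to 0.107 for Ndufv1.

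Complex II, succinate dehydrogenase, also belongs to the citric acid cycle. Its catalytic pair fell. Sdha, the flavoprotein that oxidises succinate and whose promoter is printed above, gave 681.3 and 736.8 against 528.9 and 474.4, a log2 change of -0.49 ± 0.11 (limma adjusted p = 0.0392). Sdhb, the iron-sulfur subunit, gave 5298.4 and 5654.5 against 4352.2 and 4419.5, a change of -0.32 ± 0.06 (limma adjusted p = 0.0298). The membrane anchors Sdhc (4248.9 and 4328.0 against 3914.4 and 3450.1) and Sdhd (3837.3 and 4025.8 against 3362.6 and 3343.4) had changes of -0.22 ± 0.08 and -0.23 ± 0.07. These did not pass (limma adjusted p = 0.142 and 0.0865). In all 4 genes both transgenic arrays lay below both non-transgenic arrays, an order found in 28.1% of all probe sets tested and 46.4% of those with a signal of 1000 or more. The calls of Sdha and Sdhb ended in limma whichever array was left out (adjusted p up to 0.136 and 0.106).

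Complex III passes electrons from ubiquinol to cytochrome c. Of its 8 genes and Cycs, the small subunits Uqcrq and Uqcrh fell. Uqcrq gave 7247.3 and 7468.9 against 5673.5 and 5811.1, a log2 change of -0.36 ± 0.06 (limma adjusted p = 0.0147). Uqcrh, the hinge protein beside cytochrome c1, gave 3921.7 and 3849.1 against 3199.0 and 2857.8, a change of -0.36 ± 0.08 (limma adjusted p = 0.0361). The groups did not overlap in either gene.

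The other members of complex III had log2 changes from -0.29 to -0.08 and did not pass. Cyc1, cytochrome c1 itself, gave 7986.5 and 7802.3 against 6726.5 and 6949.2, a change of -0.21 ± 0.06 (limma adjusted p = 0.0738). Uqcrb stood at -0.29 ± 0.09, and the core proteins Uqcrc1 and Uqcrc2 at -0.25 ± 0.08 and -0.17 ± 0.09. Uqcr10 stood at -0.20 ± 0.07 and Uqcr11 at -0.08 ± 0.07. Cycs, the mobile carrier cytochrome c, gave 466.2 and 589.2 against 497.8 and 439.7, with overlap between the groups. The call of Uqcrq ended in limma without transgenic replicate 1 (adjusted p = 0.0575), and that of Uqcrh in 3 of the 4 fits without an array (adjusted p up to 0.136).

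In complex V the peripheral stalk subunit Atp5o, which ties the stalk to the catalytic head, was the single gene past the threshold. It gave 5050.3 and 5135.6 against 4141.5 and 4244.8, a log2 change of -0.28 ± 0.06 (limma adjusted p = 0.0373). The groups did not overlap, yet the call ended in limma whichever array was left out (adjusted p up to 0.162). Its stalk partners Atp5pb (125.8 and 105.1 against 81.7 and 61.9) and Atp5j (2994.8 and 3583.0 against 2447.6 and 2638.9) had changes of -0.63 ± 0.20 and -0.37 ± 0.10. They did not pass (limma adjusted p = 0.112 and 0.0760), and Atp5pb had a wide SE at a low signal.

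In the catalytic head and central stalk of complex V, 0 of 4 members passed. Atp5a1, the alpha subunit, gave 6677.8 and 6758.2 against 5707.9 and 6195.9, a log2 change of -0.18 ± 0.06 (limma adjusted p = 0.153). Atp5c1, the gamma subunit of the rotor, stood at -0.22 ± 0.08. Atp5e, the epsilon subunit, gave 2622.9 and 2234.2 against 1888.7 and 1427.0, a change of -0.56 ± 0.14 that just missed (limma adjusted p = 0.0632). The chosen probe set of the delta subunit gene Atp5d overlapped between the groups, at 866.8 and 1062.2 against 881.4 and 975.7 (-0.05 ± 0.12), and its change was 0.031 after median centring. Its 3 other tested probe sets had changes of -0.42, -0.21 and -0.17, with none past the test. In each both transgenic arrays lay below both non-transgenic arrays, as in 28.1% of all probe sets tested. The brightest of these 3 Atp5d probe sets gave 950.8 and 964.0 against 782.2 and 871.7. The difference between the probe sets of this gene was not tested.

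Atp5g1 and Atp5g2 encode the c subunit of the rotor ring and differ mainly in their import sequences. Atp5g1 was dim, at 68.7 and 68.9 against 46.1 and 70.2. Atp5g2 gave 583.3 and 623.7 against 523.0 and 500.8, from a probe set with a design suffix for probes shared with related transcripts or otherwise irregular. Their log2 changes were -0.24 ± 0.24 and -0.23 ± 0.10, apart by -0.0027 (exact two-sided permutation test over the 4 arrays, p = 1.0). The smallest p of that design is 0.333, so it cannot show whether they move alike, and without single arrays the difference ran from -0.30 to 0.29. Of the small membrane subunits, Atp5mpl (-0.31 ± 0.08), Atp5md (-0.22 ± 0.06), Atp5k (-0.33 ± 0.19) and Atp5l (-0.09 ± 0.06) did not pass, and Atp5j2 lay below the filter. After quantile normalization Atp5l had a change of 0.035, and Uqcr11 of complex III one of 0.045.

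Members with the lowest and highest log2 changes were set side by side. Ndufb3 and Ndufv3 differed in log2 change by 0.90, Atp5d and Atp5pb by 0.58, Uqcr11 and Uqcrh by 0.28, and Sdhc and Sdha by 0.27. These pairs were chosen by their values, so the size of each difference is a description. Each gave p = 0.333 in the exact permutation test, the smallest that 2 against 2 arrays allow, and 0.416 after Benjamini-Hochberg adjustment over 5 pairs.

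**Figure D4:**
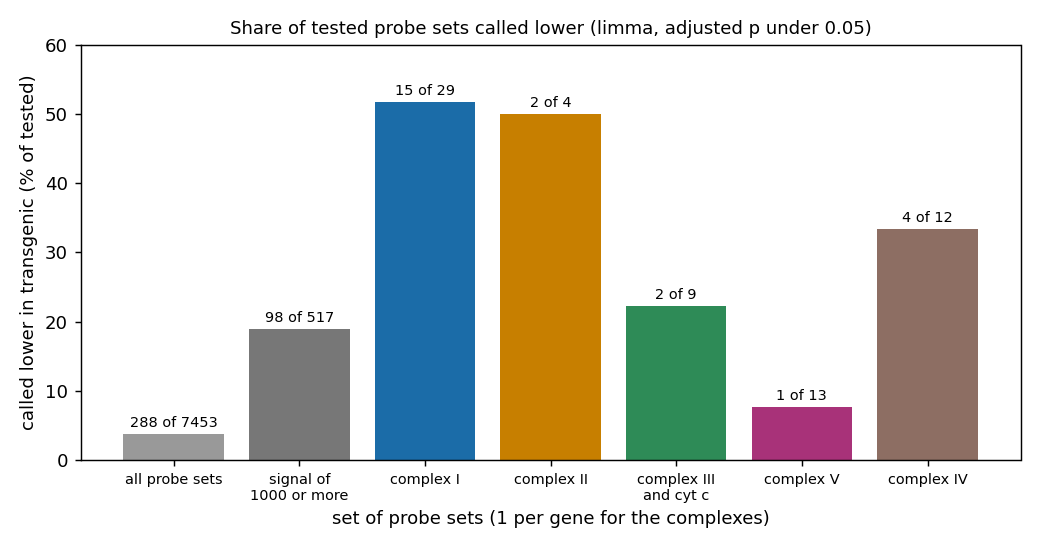
Bars give the percent of tested probe sets called lower (y axis), with the count above each bar, for all probe sets, those with a signal of 1000 or more, and each complex with 1 probe set per gene (x axis). Complex I stands at 15 of 29 and complex V at 1 of 13, against 288 of 7453 for all probe sets and 98 of 517 for bright ones.

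Second probe sets of the members pointed the same way with 1 exception. Of 20 such probe sets 10 were tested, 9 of them had a change below 0, and 2 passed, those of Ndufa3 (-0.80, limma adjusted p = 0.0458) and Ndufb2 (-0.41, limma adjusted p = 0.0114). The exception was a dim probe set of Atp5l at 43.5 and 30.1 against 43.3 and 93.6 (0.69, limma adjusted p = 0.278). A further 8 probe sets carried a member's symbol beside another and were left out by the rule. Of these 7 were tested, all with changes below 0, and 2 passed. Chosen after its values were seen, the brighter probe set of Ndufs6 and its copy Ndufs6b gave 5631.3 and 5416.1 against 3849.1 and 3960.7 (limma adjusted p = 0.00612). The other that passed was shared by Ndufab1 and its pseudogene. Of the 58 chosen probe sets, 12 carry a design suffix that marks probes shared with related transcripts or otherwise irregular. Ndufa3, Ndufa5, Ndufb2, Ndufb5 and Sdhb are among them, as are Atp5g2 and Atp5d.

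The rest of the pathway was read from gene lists. Complex IV, cytochrome c oxidase, had 4 of 12 tested genes lower, 0 higher and a median log2 change of -0.35, namely Cox8b, Cox6a2, Cox7a1 and Cox5b. The muscle form Cox6a2 had the smallest p of the 4, at 10562.5 and 9924.1 against 5935.6 and 6034.3, and Cox8b the largest fall, at -0.79 ± 0.10. Assembly factors had Cox18 lower (-0.55 ± 0.12) among 11 tested, with a median of -0.25. Of 12 tested genes that feed or make ubiquinone, Etfb, which takes electrons from fatty acid oxidation, and Coq9 fell, by 0.53 and 0.40 on the log2 scale. Of 9 tested genes for carriers, channels and mitochondrial creatine kinases, 0 were called higher. The adenine nucleotide exchanger Slc25a4 fell by 0.26, the oxoglutarate carrier Slc25a11 by 0.52 and mitochondrial creatine kinase Ckmt2 by 0.42. Among 9 tested regulators of mitochondrial biogenesis only Esrra, the estrogen-related receptor alpha, passed, at 1015.4 and 1040.8 against 764.0 and 774.3 (limma adjusted p = 0.0345). The coactivator Ppargc1a was dim, at 42.5 and 36.5 against 25.9 and 42.1, with overlap. After median centring 0 regulators and 0 assembly factors passed in either direction, while complex IV had 4 lower under median centring and 4 under quantile normalization.

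The vacuolar ATPase, a related rotary pump of lysosomes, was listed for contrast. Of its 15 tested genes 0 passed in either direction (limma; 4 had an unadjusted p below 0.05, all higher), and all 15 had changes above 0, from 0.02 to 0.37, with a median of 0.16. Among all 7453 probe sets tested, 3629 had a change above 0. After quantile normalization 14 of the 15 vacuolar ATPase genes were above 0. Atp6v0e (0.37 ± 0.14) and Atp6v1g1 (0.25 ± 0.10) had the smallest p. The difference from complex V was not tested.

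Signs of tissue makeup moved with the groups. The tissue's defining markers were bright, with the ventricular light chain Myl2 at 11572.0 and 11286.8 against 9025.6 and 9760.3. All 8 cardiomyocyte markers had changes below 0, 5 of them past the test, with a median log2 change of -0.27, and their summed signal was 75081.8 to 76677.2 in non-transgenic and 60068.3 to 60867.7 in transgenic samples. After median centring 2 of the 8 passed as lower and 7 were below 0, and after quantile normalization 1 passed and 5 were below 0. Fibroblast markers passed as higher in 7 of 8 cases (summed signal 6414.9 to 6485.3 against 10806.6 to 11282.3), and macrophage markers in 4 of 7 tested (2170.6 to 2437.4 against 3624.9 to 3634.5). Hepatocyte markers fell in 5 of 6 tested cases, from a summed signal of 2213.0 to 4079.5 over 9 genes to 132.9 to 162.5, with none at 0. Adipocyte markers summed to 467.7 to 576.3 against 281.4 to 319.6 over 4 genes, with Adipoq past the test. In bulk tissue, fewer cardiomyocytes and less RNA of these genes per cell cannot be told apart. The part of these shifts in the falls of respiratory genes was not tested.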

How the data were processed

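Each array's deposited file lists a linear signal intensity for every probe set. Biotin labelling and hybridisation followed Affymetrix's procedure, per the labels. The sources used here do not name the signal software or scaling. The mean without the top and bottom 2% was 150.1 on each array. A change shared by most RNA is therefore not visible. Probe sets were named through GEO's platform annotation, with 0 symbols changed against RefSeq. Of 12422 probe sets, 10833 had 1 symbol, 396 several and 1193 none, and 66 controls were left out. Array medians of log2(signal + 9) were 5.98 and 5.94 in non-transgenic and 5.86 and 5.90 in transgenic samples. Both transgenic medians were thus the lower ones. All lay within 0.2, so arrays were used as deposited. The added 9 is the rounded 20th percentile of all values. The lowest 40% by mean were dropped, leaving 7453 (mean signal of 30.1 or more).

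The test was limma 3.58.1 (lmFit, then eBayes with a trend of variance on signal; R 4.3.3), two-sided at an adjusted p of 0.05 with 5.05 prior and 2 residual degrees of freedom. The fit was tested on simulated data whose variances were drawn from the trend fitted here, so that test cannot show whether the trend holds. Named members were those past the threshold, the 3 at each end of each complex and all of complex II. Further genes came from lists, by smallest p; Ppargc1a and members outside this rule were named after their values were seen, to complete a group by role. The members and lists were chosen with earlier results of these data known, so no pattern here is independent support for those. The list of mitochondrially encoded subunits had 0 genes on the array. Markers of endothelium (1 of 8 higher, 1 lower), smooth muscle (1 of 3 tested higher), erythroid cells (0 of 2) and skeletal muscle (2 of 5 higher, 1 lower) were read the same way. With 4 arrays, their number sets the precision.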

Additional observations from a re-analysis of the deposited data

How the results depend on the processing

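Medians kept their direction and many calls did not hold. The median log2 change of each complex was below 0 in every alternative, from -0.36 to -0.28 for complex I, -0.31 to -0.16 for complex II, -0.25 to -0.13 for complex III and -0.31 to -0.16 for complex V. Members lower numbered 20 in all, and for complexes I, II, III and V 15, 2, 2 and 1. Median centring gave 8 (7, 0, 1 and 0), and quantile normalization 11 (9, 1, 1 and 0). Median centring moved the median of all tested probe sets from -0.01 to 0.07. Without the filter on dim probe sets, so that more were adjusted over, 4 fell (4, 0, 0 and 0; 38 at an unadjusted p below 0.05). Without a trend of variance in eBayes, or with the ordinary test, 0 fell in each complex (20 and 24 unadjusted). Leaving out each array gave 8 to 12 in all, 6 to 10 in complex I, 0 in complex II, 1 in complex III and 0 to 1 in complex V. Complex V had 3 when the filter took out the lowest 60% and 5 at an adjusted p of 0.10, where complex III had 4. With the replicate block the counts were 22 in all and 3 in complex V, and calls of the 20 were kept; the numbers are not said to pair samples, and deviations of same-numbered arrays correlated at -0.06. Other pseudocounts, a robust prior and other probe sets per gene left these counts within 1.5 times. The number higher was 0 throughout.

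Some changes turned in sign, none of them past the test: Atp5d 0.031 (median centring) and -0.19 to 0.096 (1 array left out), Atp5l 0.035 and Uqcr11 0.045 (quantile normalization), Atp5l 0.69 (dim second probe set), Ndufb6 -0.060 to 0.075 and Cycs -0.33 to 0.0050 (1 array left out). The difference between Atp5g1 and Atp5g2 was 0.050 at a pseudocount of 32, 0.096 after quantile normalization and -0.30 to 0.29 with 1 array left out. The cause of these shifts was not tested.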
